A study of Mus musculus with 18 samples.

Results

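Gene expression in the cerebral cortex and the hypothalamus of wild-type mice was compared on 6 Illumina bead arrays, 3 per region. The 6 samples came from male C57BL/6J mice of 4 to 5 months, labelled wild type, on standard chow, with no treatment named. The design text counts 18 animals for 18 arrays, so each cortex sample and each hypothalamus sample came from its own mouse. The other 12 arrays are 3 of wild-type hippocampus and 9 of mice without the taste receptor subunit T1R3 (T1R3KO) in the same regions, bred on the same background for at least 4 generations. Here the 3 knockout cortex and 3 knockout hypothalamus arrays are other animals in which the same regions can be compared, and all 18 arrays enter the normalization and the shared estimate of spread. The labels name each region as a whole and give neither the cortical area nor the borders of the dissected hypothalamus. Of 25697 probes, 14640 were detected (detection p under 0.05) on at least 3 of the 6 arrays and were tested, and 13772 of these carry the symbols of 9976 genes.

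The cerebral cortex is a layered sheet in which most neurons are excitatory projection cells that use glutamate, with local interneurons that use GABA. The hypothalamus is a set of small nuclei at the base of the forebrain whose neurons make peptides and releasing hormones and govern feeding, drinking, sleep, temperature, stress and reproduction. During development the first arises from the dorsal telencephalon and the second from the ventral diencephalon and neighbouring territory, and each keeps part of its founding set of transcription factors in the adult. In whole tissue, a higher level can mean more cells of a type or more RNA per cell, and the 2 cannot be told apart here.

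The mean signal of an array lay between 907 and 1156 intensity units. The share of probes detected was 53.0% to 54.0% on the cortex arrays and 55.8% to 58.1% on the hypothalamus arrays. Levels below are log2 signals after background correction and quantile normalization, and differences are hypothalamus minus cortex in log2 units ± SE. A probe detected on 0 arrays of one region has only a bound there. Its fold is given as at least the bright group's mean over the lowest detected level of the dim arrays, or over the dim probe's own level where that was higher. Arrays of one region correlated with each other across the tested probes at r = 0.992 to 0.995 and with the other region at 0.926 to 0.937. Probes are not independent of each other, so these values describe the arrays only. Some arrays stood apart in genes of neighbouring tissue. Cortex array 2 was the highest of the cortex arrays in striatal genes, whose mean over 24 members lay 0.39 above the cortex mean, against -0.29 and -0.10 for arrays 1 and 3. Hypothalamus arrays 1, 2 and 3 differed in meningeal and fibroblast genes, whose mean over 31 members lay at -0.74, -0.01 and 0.74 around the hypothalamus mean. Anterior pituitary hormone genes were detected on the hypothalamus arrays and on 0 cortex arrays. The values of these genes are given beside the results they accompany.

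The region labels fitted the defining markers that the array measured. Slc17a7, the vesicular glutamate transporter of cortical excitatory neurons, stood at 12.95, 13.04 and 13.04 on the cortex arrays and 6.40, 5.27 and 5.73 on the hypothalamus arrays. Its wild-type hippocampus mean was 12.81. Tbr1, a transcription factor of cortical projection neurons, and Camk2a, the alpha subunit of CaM kinase II, were also lower in hypothalamus (-5.53 ± 0.20 and -2.65 ± 0.16). Pmch, Hcrt, Avp, Oxt and Nkx2-1 marked the hypothalamus arrays, with values given below. The probes of Neurod6 for cortex and of Sim1 and Otp for hypothalamus were detected on 0 of the 6 arrays. Hippocampal markers differed in direction. The CA1 gene Fibcd1 did not pass the test (0.23 ± 0.12, adjusted p = 0.125). C1ql2 (2.66 ± 0.25) and Prox1 (1.26 ± 0.15) were higher in hypothalamus and Spink8 lower (-1.23 ± 0.26).

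The regions differed at many genes in both directions. By limma with Benjamini-Hochberg adjustment, 7466 of the 14640 probes (51.0%) passed an adjusted p of 0.05, of which 3882 (26.5%) were higher and 3584 (24.5%) lower in hypothalamus. With 1 probe per gene, 5294 of 9976 genes passed (53.1%), with 2749 higher (27.6%) and 2545 lower (25.5%). A difference of at least 2-fold was reached by 1266 genes (12.7%), of which 617 (6.18%) were higher and 649 (6.51%) lower. At least 4-fold differences numbered 169 higher and 160 lower, and at least 16-fold ones 26 and 13. The median difference over all genes was 0.01, which quantile normalization holds near 0 by construction. In 65.5% of the genes, and 63.6% of the probes, the 3 arrays of one region all lay above the 3 of the other. A probe that is detected in one region only could pass the filter only by differing: 596 probes were detected on 3 hypothalamus and 0 cortex arrays, and 119 on 3 cortex and 0 hypothalamus arrays. Among the 8872 genes detected on all 6 arrays, 52.2% passed, 26.2% higher and 26.0% lower. The scatter of mean levels shows the few genes at the far ends.

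**Figure D1:**
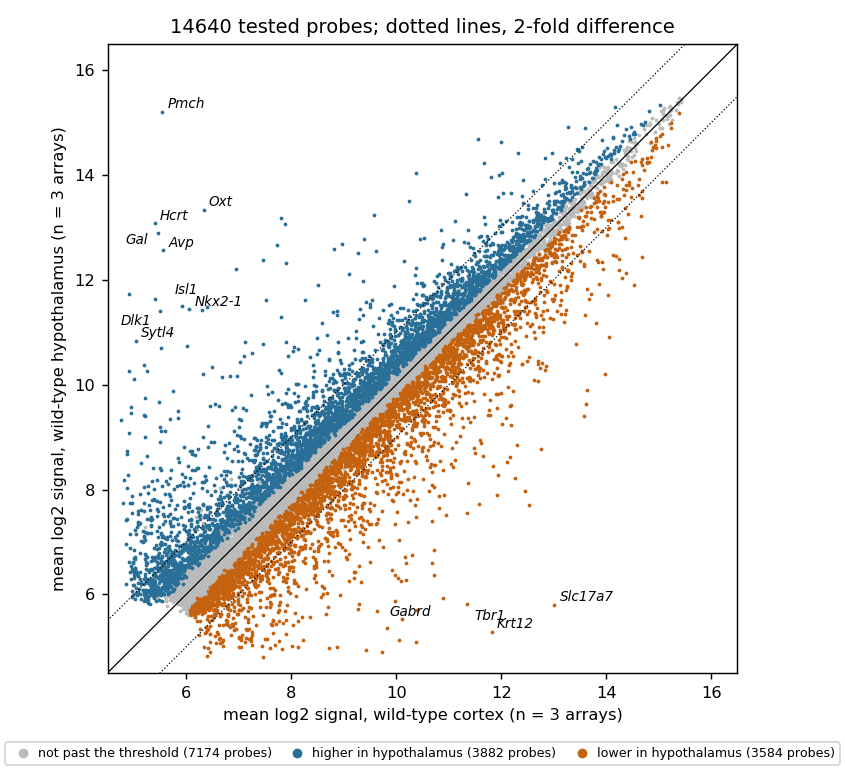
Mean log2 signal of each of the 14640 tested probes in wild-type cortex (horizontal) and wild-type hypothalamus (vertical), 3 arrays each; blue probes were higher and orange probes lower in hypothalamus at an adjusted p under 0.05, and the dotted lines mark a 2-fold difference. Pmch lies at 5.54 and 15.20, the point farthest above the diagonal, and Slc17a7 lies at 13.01 and 5.80, the point farthest below it.

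The largest differences toward hypothalamus were those of secreted peptides. Pmch, the precursor of melanin-concentrating hormone in neurons of the lateral hypothalamus, stood at 5.57, 5.53 and 5.52 on the cortex arrays and 15.33, 15.04 and 15.23 on the hypothalamus arrays. It was not detected on any cortex array, and the hypothalamus mean was at least 555-fold higher (adjusted p = 4.5e-10). Hcrt, the precursor of the wake-promoting orexins, stood at 5.47, 5.31 and 5.41 on the cortex arrays and 13.30, 12.64 and 13.28 on the hypothalamus arrays, at least 127-fold higher (adjusted p = 2.8e-15). Avp, the vasopressin precursor, stood at 5.31, 6.03 and 5.35 on the cortex arrays and 12.41, 12.75 and 12.52 on the hypothalamus arrays and was at least 88.9-fold higher. In these 3 genes the hypothalamus arrays lay within 1 log2 unit of each other and far above every cortex array. Oxt, the oxytocin precursor, was detected on all 6 arrays, at 6.22, 6.34 and 6.43 on the cortex arrays and 12.65, 13.85 and 13.49 on the hypothalamus arrays, a difference of 7.003 ± 0.22 (adjusted p = 9.3e-13). Gal, the precursor of galanin, stood at 4.93, 6.38 and 5.08 on the cortex arrays and 12.84, 13.19 and 12.65 on the hypothalamus arrays (adjusted p = 2.1e-09). It was detected on cortex array 2, where the striatal genes were highest, and on neither of the other cortex arrays, so the size of its difference is not given. Other genes were also detected on only some arrays of a region, and their differences use signals not above background: 1 of 3 cortex arrays for Dlk1, Isl1, Nkx2-1, Esr1, Tacr3, Npy2r, Oprk1, Nr2f2 and Htr2c, and 1 of 3 hypothalamus arrays for Slc17a7, Tbr1, Gabrd, Cort and Mas1. Ghrh, the growth hormone-releasing hormone of the arcuate nucleus, stood at 5.21, 5.35 and 5.20 on the cortex arrays and 10.22, 10.35 and 10.24 on the hypothalamus arrays, at least 18.1-fold higher (adjusted p = 5.0e-13).

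The promoters of Pmch, Hcrt, Oxt and Avp are shown because these genes had some of the largest differences toward hypothalamus. Gal was left out as it was detected on 1 cortex array only. Sequences are from RefSeq, mouse build GRCm38.p6, the 250 bases before each annotated start, read 5′ to 3′ along the gene. Capitals mark the TATA box (TATAAA) and the cyclic AMP response element (TGACGTCA), searched on both strands.
Pmch promoter, chr10:88090822-88091071, plus strand: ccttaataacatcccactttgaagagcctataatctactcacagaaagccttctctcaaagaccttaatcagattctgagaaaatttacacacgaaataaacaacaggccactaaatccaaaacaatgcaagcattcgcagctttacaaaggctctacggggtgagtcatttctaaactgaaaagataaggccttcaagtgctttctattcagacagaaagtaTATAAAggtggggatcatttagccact
Hcrt promoter, chr11:100762932-100763181, minus strand: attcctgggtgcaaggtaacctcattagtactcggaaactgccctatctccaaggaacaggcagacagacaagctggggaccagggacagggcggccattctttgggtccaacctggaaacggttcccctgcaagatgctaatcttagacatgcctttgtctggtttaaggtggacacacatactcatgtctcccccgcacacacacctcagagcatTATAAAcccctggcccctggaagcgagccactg
Oxt promoter, chr2:130575919-130576168, plus strand: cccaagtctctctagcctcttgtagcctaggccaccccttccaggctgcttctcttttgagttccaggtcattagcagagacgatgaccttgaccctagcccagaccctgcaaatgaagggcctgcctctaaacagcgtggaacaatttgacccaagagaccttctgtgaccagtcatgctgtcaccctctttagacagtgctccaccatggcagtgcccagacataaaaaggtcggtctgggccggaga
Avp promoter, chr2:130582589-130582838, minus strand: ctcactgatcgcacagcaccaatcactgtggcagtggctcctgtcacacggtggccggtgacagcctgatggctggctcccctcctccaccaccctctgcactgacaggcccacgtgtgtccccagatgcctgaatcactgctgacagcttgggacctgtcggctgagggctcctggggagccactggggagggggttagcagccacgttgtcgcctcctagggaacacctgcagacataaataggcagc
Pmch holds TATAAA starting 27 bases and Hcrt 33 bases before the start, and neither Oxt nor Avp holds either motif in this window. Of the peptide genes higher in hypothalamus, 14 have a single promoter in the table. TATAAA was found in 4 of them (28.6%) and in 12.4% of the table's 32851 promoters. TGACGTCA was found in 1 of the 14, Cartpt, and in 1.55% of all promoters. A match is a run of letters and says nothing of binding.

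Of 23 peptide and releasing hormone genes tested, 16 were higher and 2 lower in hypothalamus, with a median difference of 2.54, or 1.65 with undetected genes at their bound. In 9 of the 23 the probe was detected on 3 hypothalamus and 0 cortex arrays. Of the 10 detected on all 6 arrays, 5 were higher and 2 lower. Trh, thyrotropin-releasing hormone, stood at 6.79, 9.50 and 6.88 on the cortex arrays and 12.62, 12.87 and 12.53 on the hypothalamus arrays (4.95 ± 0.68, adjusted p = 1.7e-05). Cortex array 2 was far above the other cortex arrays in Trh, whose SD in cortex was the largest of all probes tested. Pomc, the precursor of melanocortins and beta-endorphin, stood at 4.88, 4.85 and 4.97 on the cortex arrays and 9.38, 8.58 and 9.28 on the hypothalamus arrays, at least 7.97-fold higher. Pomc is made in the arcuate nucleus and also in the pituitary, whose other hormone genes were present on the same arrays. Tac1, the substance P precursor, was higher by 2.22 ± 0.41. Without cortex array 2 the counts were again 16 and 2. Against the list, Vip, vasoactive intestinal peptide, and Npy, neuropeptide Y, both also made by cortical interneurons, were lower in hypothalamus. Vip stood at 11.93, 11.96 and 12.09 on the cortex arrays and 9.94, 9.80 and 9.77 on the hypothalamus arrays (-2.15 ± 0.13, adjusted p = 1.1e-09), and Npy at 12.70, 12.39 and 12.85 on the cortex arrays and 11.45, 11.34 and 11.32 on the hypothalamus arrays (-1.28 ± 0.15, adjusted p = 3.8e-06). Sst, somatostatin (-0.11 ± 0.08, adjusted p = 0.266), and Grp, gastrin-releasing peptide (-0.11 ± 0.20, adjusted p = 0.68), did not pass. Of the 9 peptide genes better known from other forebrain neurons, 5 were higher and 4 lower in hypothalamus. Cort, cortistatin, stood at 10.24, 10.42 and 10.50 on the cortex arrays and 6.76, 5.08 and 5.24 on the hypothalamus arrays (-4.69 ± 0.30), and Cck, cholecystokinin, at 13.67, 13.45 and 13.60 on the cortex arrays and 9.41, 9.26 and 9.52 on the hypothalamus arrays (-4.18 ± 0.10, adjusted p = 7.6e-14). Adcyap1, the precursor of PACAP, was higher in hypothalamus (2.15 ± 0.16).

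**Figure D2:**
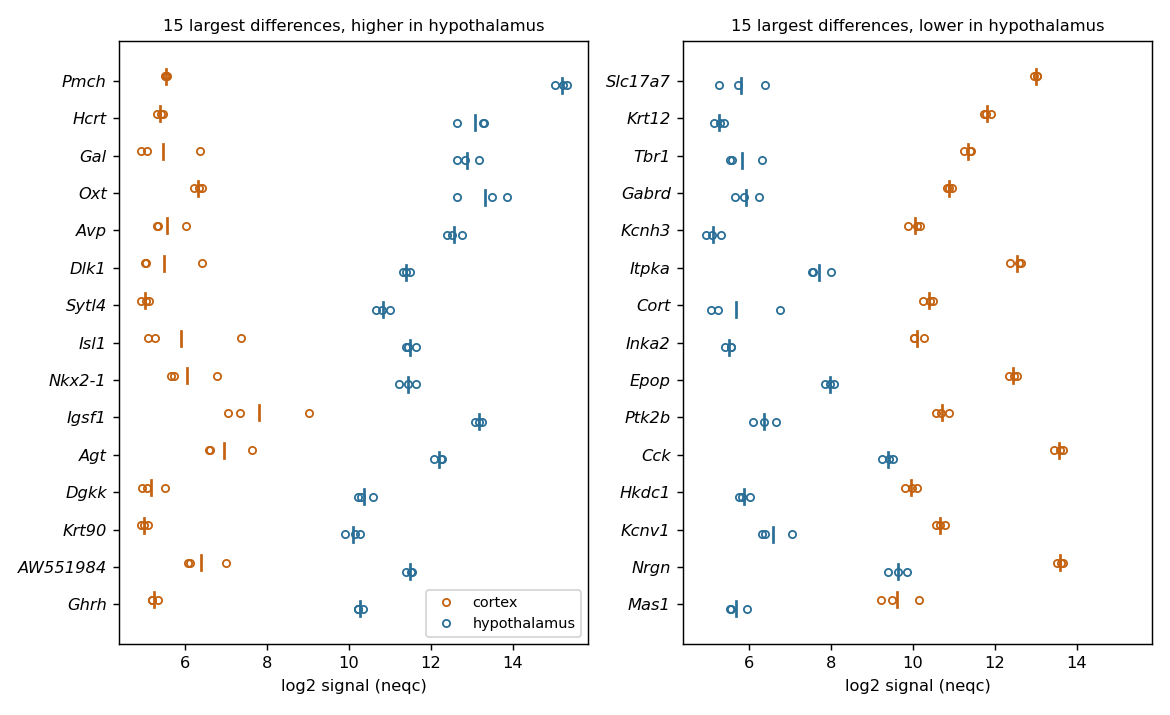
Log2 signal on each wild-type array (open circles; bars, mean of 3) for the 15 genes with the largest differences in each direction among genes past the threshold whose arrays did not overlap. Cortex points lie left of hypothalamus points in every row of the left panel and right of them in every row of the right panel; a lone cortex array, array 2, lies to the right of the other cortex arrays in Gal, Dlk1, Isl1, Nkx2-1, Igsf1 and Agt.

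The remaining genes among the 15 largest differences toward hypothalamus include secretory, developmental and glial genes. Dlk1, a membrane ligand related to the Notch ligands, stood at 5.02, 6.42 and 5.06 on the cortex arrays and 11.32, 11.51 and 11.41 on the hypothalamus arrays (5.91 ± 0.55). Sytl4, a protein of secretory vesicles also called granuphilin, stood at 4.92, 5.13 and 5.05 on the cortex arrays and 11.02, 10.81 and 10.68 on the hypothalamus arrays, at least 26.9-fold higher. Igsf1, an immunoglobulin superfamily membrane protein, stood at 7.05, 9.04 and 7.35 on the cortex arrays and 13.26, 13.18 and 13.08 on the hypothalamus arrays (5.36 ± 0.45). Agt, angiotensinogen, made by astrocytes in brain, stood at 6.60, 7.64 and 6.61 on the cortex arrays and 12.07, 12.26 and 12.29 on the hypothalamus arrays (5.25 ± 0.31, adjusted p = 1.3e-09). Dlk1, Igsf1 and Agt were each highest on array 2 among the cortex arrays. Dgkk, a diacylglycerol kinase, was at least 19.5-fold higher and the keratin gene Krt90 at least 16.2-fold higher, neither detected on a cortex array. AW551984 differed by 5.08 ± 0.34.

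Most transcription factors of the hypothalamus and ventral forebrain were higher there. Of 25 tested, 21 were higher and 2 lower in hypothalamus (median 1.93), and 9 were detected on 3 hypothalamus and 0 cortex arrays. Of the 14 detected on all 6 arrays, 10 were higher and 2 lower. Isl1, a LIM homeodomain factor, stood at 5.11, 7.38 and 5.27 on the cortex arrays and 11.65, 11.39 and 11.44 on the hypothalamus arrays (5.58 ± 0.75, adjusted p = 1.4e-05). Isl1 is also a striatal gene, and its cortex array 2 was the high one. Nkx2-1, a homeodomain factor needed to form the ventral hypothalamus, stood at 5.73, 6.77 and 5.65 on the cortex arrays and 11.63, 11.45 and 11.23 on the hypothalamus arrays (5.38 ± 0.40). Lhx1 was at least 6.26-fold higher, Ebf3 at least 7.57-fold, Irx3 at least 9.57-fold, Foxb1 at least 8.19-fold, Irx5 at least 4.57-fold and Lhx5 at least 4.28-fold, and these 6 were detected on 0 cortex arrays. Meis2 (-2.04 ± 0.20, adjusted p = 3.7e-07) and Nfix (-1.42 ± 0.17, adjusted p = 4.5e-06) were lower in hypothalamus. Lhx8 (0.12 ± 0.34) and Zic2 (0.65 ± 0.29, adjusted p = 0.0683) did not pass. The thalamic factor Gbx2 stood at 4.91, 5.44 and 5.05 on the cortex arrays and 6.77, 7.97 and 8.07 on the hypothalamus arrays, and was detected on 0 cortex arrays. The part of neighbouring thalamus in these results was not tested. Without cortex array 2 the counts were 20 higher and 2 lower, with a median of 2.19.

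Receptors for peptides and metabolic hormones were mostly higher in hypothalamus. Of 32 tested, 21 were higher and 7 lower in hypothalamus (median 1.01, 0.88 with undetected genes at their bound). Of the 20 detected on all 6 arrays, 10 were higher and 7 lower. Calcr, the calcitonin receptor, stood at 4.81, 5.05 and 4.98 on the cortex arrays and 9.77, 9.57 and 9.37 on the hypothalamus arrays, at least 11.2-fold higher (adjusted p = 1.9e-13). Avpr1a, a vasopressin receptor, was at least 8.22-fold higher, Ghsr, the ghrelin receptor, at least 4.98-fold, and Brs3, bombesin receptor subtype 3, at least 2.84-fold, all 3 detected on 0 cortex arrays. Npy2r (2.68 ± 0.35), Tacr3, the neurokinin B receptor (2.48 ± 0.31), and Oprk1, the kappa opioid receptor (2.19 ± 0.25), were higher too. The other direction was taken by Cckbr, the cholecystokinin B receptor (-2.52 ± 0.15, adjusted p = 1.8e-09), Crhr1, the receptor of corticotropin-releasing hormone (-1.47 ± 0.22), and Npy1r (-1.11 ± 0.16). Npy5r (0.09 ± 0.12) and Ramp1 (-0.08 ± 0.08) did not pass.  Among 16 peptide processing and dense-core vesicle genes 5 were higher and 3 lower in hypothalamus, near the 27.6% and 25.5% over all genes. Scg2, secretogranin 2 (2.15 ± 0.17), Resp18 (2.09 ± 0.09) and Qpct, the enzyme that forms N-terminal pyroglutamate (1.93 ± 0.15), were higher, and Chgb, chromogranin B, was lower (-0.66 ± 0.09).

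The vesicular glutamate transporters differed by family member. Slc17a7 was the largest difference toward cortex (-7.21 ± 0.26, adjusted p = 3.9e-12). Slc17a6, the vesicular glutamate transporter of subcortical excitatory neurons, ran the other way, at 11.70, 11.83 and 11.51 on the cortex arrays and 14.29, 14.14 and 14.24 on the hypothalamus arrays (2.54 ± 0.17, adjusted p = 3.8e-09). The third member, Slc17a8, was lower (-0.44 ± 0.17, adjusted p = 0.0362). Of 29 synthesis and transport genes, 19 were higher and 4 lower in hypothalamus. Hdc, which makes histamine in the tuberomammillary nucleus, stood at 7.32, 7.68 and 7.36 on the cortex arrays and 12.49, 12.20 and 12.48 on the hypothalamus arrays (4.93 ± 0.21, adjusted p = 2.9e-11). Th, the rate-limiting enzyme of catecholamine synthesis, stood at 5.12, 5.42 and 5.22 on the cortex arrays and 8.85, 8.39 and 8.66 on the hypothalamus arrays, at least 5.85-fold higher. Slc6a3, the dopamine transporter, stood at 5.13, 5.44 and 5.05 on the cortex arrays and 10.24, 8.12 and 9.86 on the hypothalamus arrays, at least 9.99-fold higher, and Slc18a2, the vesicular monoamine transporter, was at least 12.1-fold higher. Slc6a11, a GABA transporter of astrocytes, was higher (2.62 ± 0.12), while Gad1, which makes GABA, did not pass (0.11 ± 0.11, adjusted p = 0.43).

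Imprinted genes, expressed mainly from the copy of 1 parent, were mostly higher in hypothalamus: of 28 tested, 18 were higher and 2 lower in hypothalamus (median 0.95). Of the 23 detected on all 6 arrays, 14 were higher and 2 lower. Peg3, a zinc finger protein, stood at 8.72, 8.66 and 8.37 on the cortex arrays and 10.87, 11.38 and 11.31 on the hypothalamus arrays (2.60 ± 0.17, adjusted p = 3.0e-09). Nnat, neuronatin, stood at 8.65, 9.41 and 8.36 on the cortex arrays and 12.33, 12.66 and 12.78 on the hypothalamus arrays (3.78 ± 0.33). Grb10, an adaptor of the insulin receptor, was higher (2.27 ± 0.13), Asb4 was at least 6.03-fold higher and Peg10 at least 3.54-fold higher. Dlk1 and Calcr, described above, are also imprinted in mouse. Ppp1r9a was lower (-0.56 ± 0.08, adjusted p = 3.4e-05), and Ube3a (0.25 ± 0.16, adjusted p = 0.2), Snrpn (-0.08 ± 0.09) and Igf2 (0.48 ± 0.34, adjusted p = 0.264) did not pass. Igf2 is a meningeal and choroid plexus gene as well. The array holds several probes per gene but does not tell the parental copies apart.

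Transcription factors of the cortex and dorsal forebrain passed in one direction only. Of 28 tested, 0 were higher and 23 lower in hypothalamus (median -1.22). Tbr1 stood at 11.42, 11.24 and 11.40 on the cortex arrays and 5.54, 6.33 and 5.59 on the hypothalamus arrays (adjusted p = 3.8e-12). Fezf2, which specifies deep-layer projection neurons, stood at 10.53, 9.73 and 10.01 on the cortex arrays and 6.22, 6.54 and 6.000 on the hypothalamus arrays (-3.84 ± 0.20), and Mef2c at 14.003, 13.91 and 13.99 on the cortex arrays and 10.14, 10.25 and 10.22 on the hypothalamus arrays (-3.76 ± 0.15). Neurod2 (-3.44 ± 0.17), Zbtb18 (-2.27 ± 0.15), Bcl11b, also called Ctip2 (-2.24 ± 0.19), and Foxp1 (-2.01 ± 0.10) were lower in hypothalamus by at least 4-fold. Lhx2 was at least 4.65-fold lower and was detected on 0 hypothalamus arrays. Bcl11b and Foxp1 are also striatal genes. Foxp2 (0.16 ± 0.14), Tle4 (0.18 ± 0.10) and Cux1 (-0.19 ± 0.09) did not pass. Among 28 layer and projection neuron markers, 4 were higher and 17 lower in hypothalamus (median -1.40). Ptk2b, the kinase Pyk2, stood at 10.58, 10.89 and 10.69 on the cortex arrays and 6.65, 6.09 and 6.36 on the hypothalamus arrays (-4.35 ± 0.15), and Slc30a3, the vesicular zinc transporter, was at least 4.05-fold lower with 0 hypothalamus arrays detected. Trib2 (0.37 ± 0.10) and Whrn (0.50 ± 0.14) were the named members that ran toward hypothalamus.

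Genes of the excitatory postsynapse made up the list with the highest share lower in hypothalamus among those with at least 10 members tested. Of 43 scaffold and CaM kinase signalling genes, 1 was higher and 37 lower in hypothalamus (median -1.35). Itpka, a kinase of inositol trisphosphate in spines, stood at 12.64, 12.59 and 12.38 on the cortex arrays and 8.01, 7.57 and 7.55 on the hypothalamus arrays (-4.83 ± 0.13, adjusted p = 1.9e-13). Nrgn, neurogranin, which binds calmodulin, stood at 13.63, 13.51 and 13.67 on the cortex arrays and 9.87, 9.41 and 9.63 on the hypothalamus arrays (-3.97 ± 0.12). Camk2a stood at 13.50, 13.32 and 13.45 on the cortex arrays and 10.72, 10.86 and 10.76 on the hypothalamus arrays (adjusted p = 1.3e-09). Icam5, telencephalin (-2.85 ± 0.12), Dlgap1 (-2.85 ± 0.22), Camkk2 (-2.81 ± 0.14) and Homer1 (-2.41 ± 0.10) followed. Camk2d, the delta subunit of the kinase, passed as higher, at 7.998, 9.02 and 8.08 on the cortex arrays and 8.90, 9.04 and 9.06 on the hypothalamus arrays (0.64 ± 0.20, adjusted p = 0.0152), with arrays of the regions that overlapped. The call was lost without cortex array 1 (adjusted p = 0.0889), without cortex array 3 (0.0796) and with only these 6 arrays in the limma fit (0.052). Dlg4, the scaffold PSD-95 (-0.53 ± 0.26, adjusted p = 0.106), and Lrrtm1 (-0.04 ± 0.15) did not pass. Receptor subunits moved less evenly: of 20 glutamate receptor genes 3 were higher and 10 lower in hypothalamus. Gria3 was lower (-1.37 ± 0.14) and Gria1 higher (0.54 ± 0.15), and the auxiliary subunits Cacng3 (-2.69 ± 0.11) and Cacng5 (1.46 ± 0.32) went opposite ways.

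Potassium channel genes followed the same direction, with 29 of 43 lower and 4 higher in hypothalamus (median -0.99). Kcnh3, a channel of the ether-a-go-go family, stood at 10.17, 9.89 and 10.10 on the cortex arrays and 5.10, 4.96 and 5.32 on the hypothalamus arrays, at least 19-fold lower. Kcnv1, a silent subunit that modifies other channels (-4.08 ± 0.15), Kcnj4, an inward rectifier (-3.66 ± 0.11), and Kcnk4, a leak channel (-2.60 ± 0.19), were lower as well. Kcna5 ran the other way, at 6.44, 7.99 and 7.001 on the cortex arrays and 9.64, 9.52 and 9.38 on the hypothalamus arrays (2.37 ± 0.38, adjusted p = 8.2e-05), as did Kcnh2 (0.89 ± 0.09). Kcnd2 (-0.16 ± 0.17) and Kcnk2 (-0.01 ± 0.11) did not pass. Of 28 calcium, sodium and HCN channel genes, 8 were higher and 9 lower in hypothalamus, near the 27.6% and 25.5% over all genes. Scn4b, a sodium channel beta subunit that also marks striatum, was lower (-3.01 ± 0.20) and Hcn3 higher (1.16 ± 0.11).

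Of 18 GABA and glycine receptor genes, 6 were higher and 5 lower in hypothalamus, near the 27.6% and 25.5% over all genes. Gabrd, the delta subunit of extrasynaptic receptors, stood at 10.84, 10.88 and 10.96 on the cortex arrays and 5.89, 5.66 and 6.24 on the hypothalamus arrays (-4.97 ± 0.18, adjusted p = 3.9e-12). Gabrg1 (2.65 ± 0.23) and Gabrb1 (0.90 ± 0.16) were higher in hypothalamus, and Gabre was at least 2.5-fold higher and the glycine receptor gene Glra1 at least 3.17-fold higher with 0 cortex arrays detected. Gabrb2 was lower (-0.90 ± 0.16). Monoamine, histamine and acetylcholine receptor genes, near the shares over all genes, split 7 higher to 8 lower of 22: the serotonin receptor gene Htr1f was lower (-1.85 ± 0.19) and Htr2c higher (1.40 ± 0.32). Of 49 presynaptic genes, 10 were higher and 27 lower in hypothalamus (median -0.36). Stx1a, syntaxin 1A (-2.63 ± 0.12), Sv2b (-2.32 ± 0.10) and Cplx2, complexin 2 (-1.75 ± 0.12), were lower. Sncg, gamma-synuclein, stood at 7.21, 7.24 and 6.89 on the cortex arrays and 10.80, 10.80 and 10.83 on the hypothalamus arrays (3.70 ± 0.20), and Doc2b (2.43 ± 0.27) and Syt9 (1.55 ± 0.15) were higher. Sv2a (0.12 ± 0.08) and Syn2 (-0.03 ± 0.13) did not pass.

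Activity-regulated genes were lower in hypothalamus in 23 of 27 and higher in 1 (median -1.24), and 26 were detected on all 6 arrays. Arc, a spine protein that regulates AMPA receptors, stood at 11.22, 11.40 and 11.44 on the cortex arrays and 7.57, 7.54 and 7.56 on the hypothalamus arrays (-3.80 ± 0.31, adjusted p = 5.5e-08). Egr4 (-3.58 ± 0.14), Egr2 (-2.64 ± 0.30), Egr1 (-2.25 ± 0.20) and Fosb (-2.07 ± 0.17) were also lower. The design text says that animals were killed under isoflurane right after experiments and does not say which experiments the array animals went through. Fos itself stood at 10.81, 11.18 and 11.01 on the cortex arrays and 10.12, 10.41 and 10.43 on the hypothalamus arrays and did not pass (-0.68 ± 0.41, adjusted p = 0.182). Its cortex and hypothalamus arrays did not overlap. Gadd45g was higher (0.74 ± 0.15), and Jund (0.01 ± 0.15) and Rheb (0.17 ± 0.08) did not pass. Plk2 stood at 12.01, 11.83 and 12.01 on the cortex arrays and 9.96, 9.72 and 9.80 on the hypothalamus arrays (-2.12 ± 0.10, adjusted p = 9.4e-11).

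Among activity-regulated genes lower in hypothalamus, 13 have a single promoter in the sequence table, and 3 of them (23.1%) hold TGACGTCA, against 1.55% of all promoters. Those of Dusp1, a phosphatase of MAP kinases, and Plk2, a polo-like kinase, are shown as members of this group with the motif in capitals, beside Cartpt, the peptide gene that holds it. These 3 genes were chosen after the motif search. Of the 13 promoters of activity-regulated genes, TATAAA was in 2 (15.4%), TAATTA in 0 and GGGCGG in 8 (61.5%). TGACGTCA was in 0 of 12 promoters of cortical transcription factor genes and 0 of 17 of postsynaptic genes, all lower in hypothalamus. GGGCGG was in 58.3% and 76.5% of those sets.
Dusp1 promoter, chr17:26508473-26508722, minus strand: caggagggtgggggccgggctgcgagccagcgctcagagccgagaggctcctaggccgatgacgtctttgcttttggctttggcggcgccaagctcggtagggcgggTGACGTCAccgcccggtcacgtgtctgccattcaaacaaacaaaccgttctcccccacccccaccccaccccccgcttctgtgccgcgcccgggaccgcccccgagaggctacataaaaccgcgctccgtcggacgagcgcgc
Plk2 promoter, chr13:110394794-110395043, plus strand: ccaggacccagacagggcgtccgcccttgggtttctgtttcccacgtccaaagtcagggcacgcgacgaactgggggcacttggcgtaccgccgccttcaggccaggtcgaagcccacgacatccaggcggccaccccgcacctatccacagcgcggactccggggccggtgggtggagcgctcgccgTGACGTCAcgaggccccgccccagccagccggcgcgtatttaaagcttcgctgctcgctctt
Cartpt promoter, chr13:99900684-99900933, minus strand: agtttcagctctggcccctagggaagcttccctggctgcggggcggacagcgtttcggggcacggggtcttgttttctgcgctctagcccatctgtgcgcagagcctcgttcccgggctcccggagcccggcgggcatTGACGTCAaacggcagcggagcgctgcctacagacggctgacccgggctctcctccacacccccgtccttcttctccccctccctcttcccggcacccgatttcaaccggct
The element starts 143 bases before the start in Dusp1, 62 in Plk2 and 112 in Cartpt. Dusp1 was lower in hypothalamus (-1.21 ± 0.20) and Cartpt higher (3.39 ± 0.26), directions that follow from the lists these genes were taken from.

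**Figure D3:**
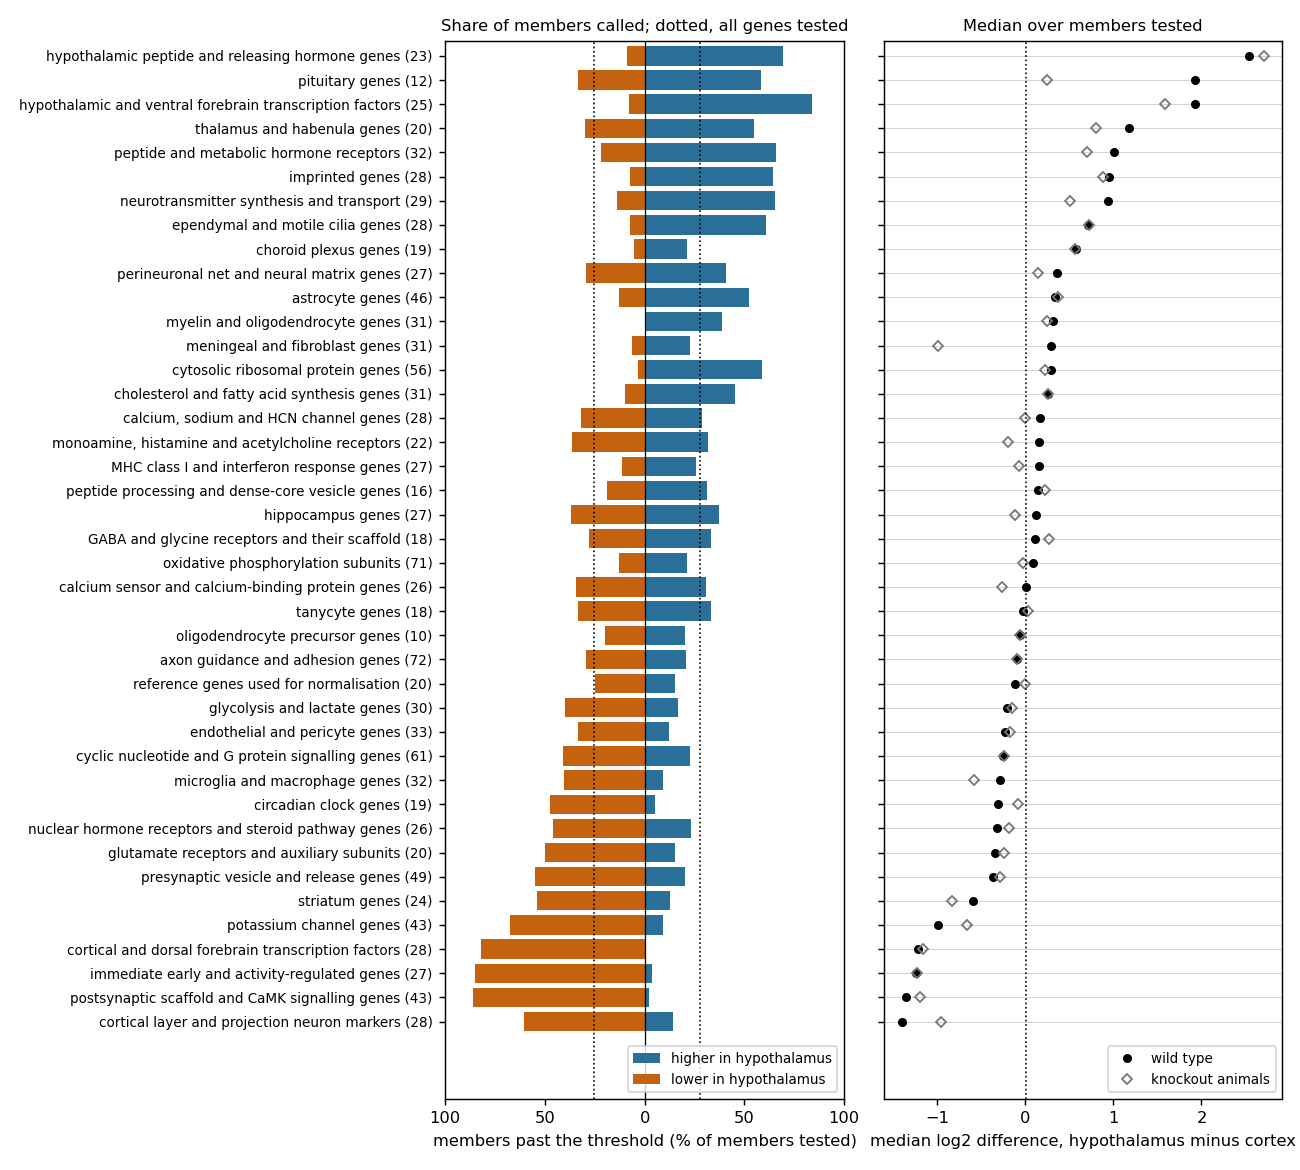
Left, share of the tested members of each gene list that were higher (blue, right) or lower (orange, left) in wild-type hypothalamus at an adjusted p under 0.05, with the number tested in brackets and dotted lines at the shares over all genes tested (27.6% and 25.5%). Right, median log2 difference of the same members in wild-type animals (filled) and in knockout animals (open diamonds); the meningeal and fibroblast list has medians of 0.29 and -0.99, on opposite sides of 0.

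Astrocyte and myelin genes passed mostly as higher in hypothalamus, and microglial and vascular genes mostly as lower. Over all genes the shares were 27.6% higher and 25.5% lower. Of 46 astrocyte genes, 24 were higher and 6 lower in hypothalamus (median 0.33). Beside Agt, Itih3 (3.73 ± 0.14), Sparc (3.14 ± 0.19) and Gfap, the intermediate filament of astrocytes (1.39 ± 0.14, adjusted p = 4.8e-07), were higher. Among the other defining astrocyte markers, Aqp4 was higher (1.01 ± 0.17), Slc1a2 lower (-0.72 ± 0.12), and Aldh1l1 did not pass (0.11 ± 0.20). Lix1 was lower (-1.37 ± 0.14), and Clu (-0.04 ± 0.07) and Cst3 (0.05 ± 0.09) did not pass. Of 31 myelin and oligodendrocyte genes, 12 were higher and 0 lower in hypothalamus (median 0.32). Tppp3 (1.72 ± 0.17), Trf, transferrin (0.61 ± 0.16), and Mal (0.61 ± 0.18) were higher, while Mbp, myelin basic protein, stood at 15.29, 15.27 and 15.11 on the cortex arrays and 15.23, 15.27 and 15.33 on the hypothalamus arrays and did not pass (0.05 ± 0.08, adjusted p = 0.59). Mag did not pass either (-0.04 ± 0.10). Without hypothalamus array 1 the count of higher members was 8 and without cortex array 2 it was 9. Of 32 microglia and macrophage genes, 13 were lower and 3 higher: Fcrls (-0.98 ± 0.27), Gpr34 (-0.93 ± 0.18) and Tmem119 (-0.75 ± 0.14) were lower and Rgs10 higher (1.04 ± 0.13). Without cortex array 1 these counts were 15 lower and 1 higher, and without any 1 hypothalamus array 2 were higher. Of 33 endothelial and pericyte genes, 11 were lower and 4 higher, among the lower Slco1c1, a thyroid hormone transporter of brain vessels (-0.60 ± 0.17). Without cortex array 2 these counts were 8 and 1, and 8 of 33 lies near the share lower over all genes.

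Cilia genes of the ependyma, the cell layer that lines the ventricles, were mostly higher in hypothalamus: of 28, 17 were higher and 2 lower in hypothalamus (median 0.71). Of the 16 detected on all 6 arrays, 9 were higher and 2 lower. Tekt1, tektin 1 (2.39 ± 0.29), Dynlrb2, a dynein chain (2.23 ± 0.27), and Rsph1, a radial spoke protein (1.88 ± 0.26), were higher, and Lrrc6 lower (-0.62 ± 0.11). Foxj1, an ependymal marker detected on all 6 arrays, was lower as well (-0.33 ± 0.12, adjusted p = 0.0369 in limma). Tanycyte genes, of the specialised ependymal cells at the floor of the third ventricle, split 6 to 6 of 18. The shares over all genes were 27.6% higher and 25.5% lower. Scn7a was at least 1.89-fold higher and Cd59a (1.79 ± 0.33) higher, but Crym (-2.67 ± 0.27) and Frzb (-1.74 ± 0.20) were lower and are expressed in cortex too. Matrix genes also divided, 11 higher and 8 lower of 27: Hapln1, a link protein of perineuronal nets, was at least 3.85-fold lower, Ncan, neurocan, lower (-1.47 ± 0.14) and Timp2 higher (1.05 ± 0.13).

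Metabolic and housekeeping lists had medians between -0.21 and 0.29. Of 56 cytosolic ribosomal protein genes, 33 were higher and 2 lower in hypothalamus, with a median of 0.29. Rps15a (0.92 ± 0.10) and Rpl22l1 (1.25 ± 0.15) had the largest differences, and Rplp1 (0.02 ± 0.07) and Rpl41 (0.11 ± 0.09) did not pass. Ribosomal protein genes have near-identical pseudogene copies, which a probe may share. Of 71 oxidative phosphorylation subunits, 15 were higher and 9 lower in hypothalamus (median 0.08), below the shares over all genes in both directions. Without cortex array 1, 8 were higher, and without hypothalamus array 1, 5 were lower. Scaling the arrays to a common median gave 10 higher and 8 lower, and the deposited z scores gave 13 and 4. Cox6a2, a cytochrome oxidase subunit, was lower (-1.18 ± 0.12, adjusted p = 9.1e-07) and Ndufb5 higher (0.68 ± 0.13). Of 31 sterol and fatty acid synthesis genes, 14 were higher and 3 lower in hypothalamus: Scd1, stearoyl-CoA desaturase, was higher (1.05 ± 0.11) and Cyp46a1, the neuronal cholesterol 24-hydroxylase, lower (-1.59 ± 0.24). Of 30 glycolysis genes, 5 were higher and 12 lower in hypothalamus, with Gpd1 (-1.97 ± 0.17) and Ldha (-0.50 ± 0.09) lower and Pgm1 higher (1.22 ± 0.12). Without hypothalamus array 1 these counts were 3 and 9, and without hypothalamus array 2 they were 3 and 10.

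Common reference genes were not free of regional differences. Of 20, 3 were higher and 5 lower in hypothalamus (median -0.11), against 27.6% and 25.5% over all genes. Scaling the arrays to a common median gave 4 and 5 with a median of 0.03, and the deposited z scores gave 5 and 1, so the direction of this list was not settled. Without cortex array 2, cortex array 3 or hypothalamus array 2, 3 were higher and 3 lower. Rer1 (0.59 ± 0.17), Hprt (0.41 ± 0.08, adjusted p = 5.4e-04) and Rpl13a (0.35 ± 0.10) were higher and Ywhaz lower (-0.36 ± 0.08). Gapdh differed by -0.23 ± 0.07 (adjusted p = 0.0155), and its direction turned when the arrays were scaled to a common median (0.02) or when the deposited z scores were used. Actb, beta-actin, depended on the probe. Its brightest probe stood at 14.29, 14.21 and 14.23 on the cortex arrays and 13.91, 13.94 and 14.08 on the hypothalamus arrays and did not pass (-0.27 ± 0.11, adjusted p = 0.0508). A pair of dimmer Actb probes varied among the cortex arrays, with SDs of 1.29 and 1.27 over n = 3, among the largest in cortex. In both of these probes cortex array 2 was lowest, at 6.24 and 6.28, and both passed as higher in hypothalamus (1.72 and 1.82). Without that array neither Actb probe passed (1.04, adjusted p = 0.0767, and 1.16, adjusted p = 0.057, in limma).

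Clock and hormone receptor genes passed more often as lower than as higher in hypothalamus. Over all genes the shares were 27.6% higher and 25.5% lower. Of 19 circadian genes, 1 was higher and 9 lower in hypothalamus (median -0.30). Npas2, a partner of BMAL1 in forebrain, stood at 7.96, 7.81 and 7.85 on the cortex arrays and 5.42, 5.81 and 5.79 on the hypothalamus arrays (-2.20 ± 0.15, adjusted p = 4.2e-09), and Per1 (-0.70 ± 0.12) and Nr1d1, REV-ERB alpha (-1.08 ± 0.14), were lower as well. Clock (-0.20 ± 0.11) and Dbp (-0.30 ± 0.13) did not pass. The labels do not say at which hour tissue was taken. Of 26 nuclear receptor and steroid pathway genes, 6 were higher and 12 lower in hypothalamus (median -0.33). Of the 19 detected on all 6 arrays, 1 was higher and 11 lower (median -0.40). Esr1, estrogen receptor alpha, stood at 5.57, 6.72 and 6.05 on the cortex arrays and 8.72, 9.12 and 8.39 on the hypothalamus arrays (2.63 ± 0.31, adjusted p = 3.8e-06), and Nr2f2, COUP-TFII, was higher (2.21 ± 0.29). Pparg was at least 3.9-fold lower and Thra, thyroid hormone receptor alpha, lower (-1.28 ± 0.15).

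Of 61 cyclic nucleotide and G protein signalling genes, 14 were higher and 25 lower in hypothalamus: Adcy1, the calmodulin-stimulated adenylyl cyclase, stood at 12.49, 11.94 and 12.44 on the cortex arrays and 8.89, 8.84 and 8.80 on the hypothalamus arrays (-3.45 ± 0.17), and Gna14 was at least 1.45-fold higher. Of 26 calcium sensors, 8 were higher and 9 lower in hypothalamus against 27.6% and 25.5% over all genes, and the direction of their median, 0.01, turned with median scaling. Calb2, calretinin, was higher (3.66 ± 0.28) and Pvalb, parvalbumin of cortical interneurons, lower (-1.73 ± 0.14). Of 72 axon guidance and adhesion genes, 15 were higher and 21 lower in hypothalamus, near the shares over all genes. Lingo1 (-2.55 ± 0.09) was lower and the Nogo receptor gene Rtn4r at least 3.22-fold lower, detected on 0 hypothalamus arrays, and Pcdh17 was higher (1.59 ± 0.15).

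Genes of neighbouring tissue were measured on the same arrays. Prl, prolactin, of the anterior pituitary, stood at 5.06, 4.83 and 4.95 on the cortex arrays and 9.18, 10.71 and 8.49 on the hypothalamus arrays, and Cga, the alpha subunit of pituitary glycoprotein hormones, at 4.75, 4.76 and 4.74 on the cortex arrays and 8.75, 10.46 and 8.75 on the hypothalamus arrays. Tshb, the beta subunit of thyrotropin, stood at 4.73, 4.87 and 4.78 on the cortex arrays and 7.70, 8.37 and 7.15 on the hypothalamus arrays. Gh, growth hormone, was detected on hypothalamus arrays 1 and 3 only, at 10.90, 5.62 and 9.91 on the 3, so it was not tested. Of 12 pituitary genes, 7 were higher and 4 lower in hypothalamus, and the higher ones included Pomc, Nnat and Dlk1, which the hypothalamus also expresses. The pituitary part in those 3 was not tested. Over all genes, 27.6% were higher and 25.5% lower. In 4 of the 12 the probe was detected on 3 hypothalamus and 0 cortex arrays. Of the 7 detected on all 6 arrays, 2 were higher and 4 lower (median -0.39, against 1.93 over the 12). Without hypothalamus array 3 the counts of the list were 7 and 2.

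Meningeal genes varied among the hypothalamus arrays. Slc6a13, a GABA transporter of the leptomeninges, stood at 9.40, 9.67 and 9.47 on the cortex arrays and 7.87, 9.61 and 10.60 on the hypothalamus arrays (-0.15 ± 0.43, adjusted p = 0.79), and Ogn, a matrix proteoglycan, at 8.89, 9.35 and 8.77 on the cortex arrays and 7.99, 9.46 and 10.66 on the hypothalamus arrays. Neither passed. Of 31 members, 7 were higher and 2 lower in hypothalamus (median 0.29), below the 27.6% and 25.5% over all genes. Without hypothalamus array 3 the counts were 4 higher and 8 lower, and without hypothalamus array 1 they were 14 higher and 2 lower, so 1 array decided the direction. Without cortex array 1 they were 4 and 2. Of 19 choroid plexus genes, 4 were higher and 1 lower in hypothalamus, also below the shares over all genes in both directions. In 3 of them the probe was detected on 3 hypothalamus and 0 cortex arrays. Of the 13 detected on all 6 arrays, 1 was higher and 1 lower. Of the 19 choroid plexus genes, 6 were higher without hypothalamus array 1 and 2 without hypothalamus array 3. Ttr, transthyretin, their most abundant product, varied in cortex, at 10.50, 8.61 and 9.61 on the cortex arrays and 7.43, 7.80 and 7.88 on the hypothalamus arrays (-1.87 ± 0.73, adjusted p = 0.0439). It was the 1 lower member, and without any single array other than cortex array 2 it did not pass (adjusted p of 0.0721 to 0.171 in limma). Ttr also did not pass with the z scores, no background correction or no filter. The same held with a trended robust prior and with only the 9 wild-type arrays in the fit. Clic6, a chloride channel (3.35 ± 0.89, adjusted p = 0.00512), and Kl, klotho (1.89 ± 0.58, adjusted p = 0.0121), were higher, and Folr1 was detected on 0 of the 6 arrays. Kl was detected on 2 of 3 cortex arrays, so its difference uses a signal not above background. Striatal genes were lower in hypothalamus in 13 of 24 and higher in 3: Ppp1r1b, DARPP-32, stood at 11.60, 12.07 and 11.68 on the cortex arrays and 9.70, 9.62 and 9.81 on the hypothalamus arrays (-2.07 ± 0.34), and Drd1 at 9.60, 10.56 and 9.81 on the cortex arrays and 8.34, 8.27 and 8.26 on the hypothalamus arrays (-1.70 ± 0.32). Drd2 stood at 6.95, 8.22 and 7.24 on the cortex arrays and 8.05, 7.77 and 7.68 on the hypothalamus arrays and did not pass (0.36 ± 0.47). Without cortex array 2, 10 striatal genes were lower and 4 higher, and leaving out any 1 of the 6 arrays gave 10 to 11 lower and 3 to 4 higher. Of 20 thalamic and habenular genes 11 were higher and 6 lower in hypothalamus (median 1.18), and 4 were detected on 3 hypothalamus and 0 cortex arrays. Of the 15 detected on all 6 arrays, 6 were higher and 6 lower (median -0.13). Tcf7l2 stood at 7.47, 7.65 and 7.60 on the cortex arrays and 9.22, 9.45 and 9.79 on the hypothalamus arrays (1.91 ± 0.21). Rora, also a thalamic marker, was lower (-0.41 ± 0.14), and Prkcd, another one, did not pass (0.14 ± 0.23, adjusted p = 0.632).

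**Figure D4:**
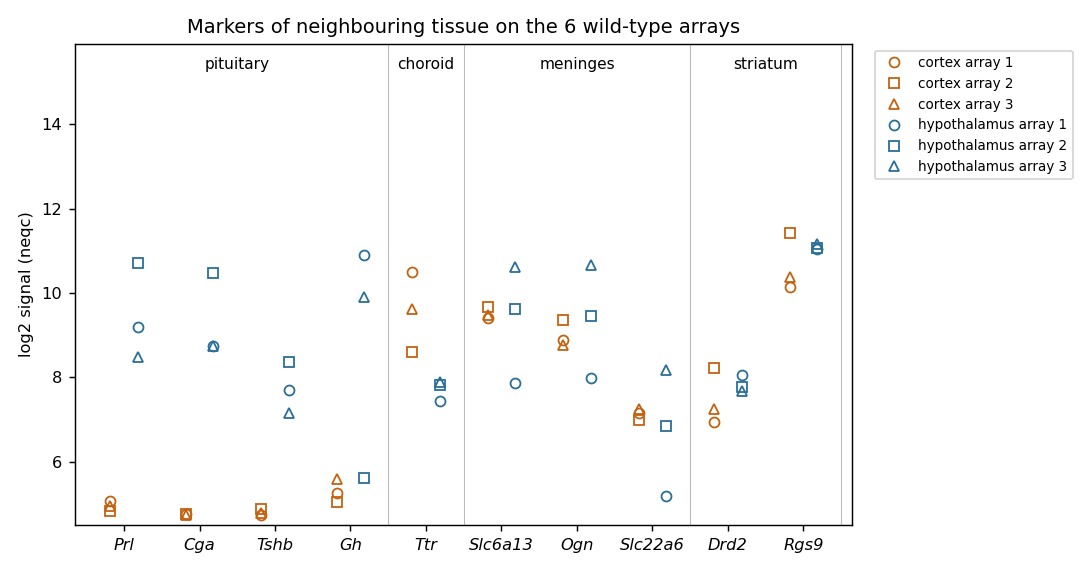
Log2 signal of genes known from pituitary, choroid plexus, meninges and striatum on each of the 3 wild-type cortex arrays (orange) and 3 hypothalamus arrays (blue), 1 symbol shape per array number. Prl, Cga and Tshb lie between 4.73 and 5.06 on the cortex arrays and between 7.15 and 10.71 on the hypothalamus arrays; the meningeal genes are lowest on hypothalamus array 1 and highest on array 3, and Drd2 and Rgs9 are highest on cortex array 2 among the cortex arrays.

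Genes detected in one region only numbered 344 in hypothalamus and 83 in cortex, counted as 3 arrays against 0. After Pmch, Hcrt and Avp, the largest bounds toward hypothalamus belonged to Sytl4, Dgkk and Ghrh. Toward cortex, Krt12, keratin 12, stood at 11.73, 11.92 and 11.80 on the cortex arrays and 5.16, 5.39 and 5.29 on the hypothalamus arrays, at least 64.4-fold lower (adjusted p = 1.8e-14), and its hippocampus mean was 9.40. Inka2, an inhibitor of the kinase PAK4, was at least 19.8-fold lower, Kcnh3 at least 19-fold, Kcnq5 at least 4.24-fold, Cd6 at least 5.02-fold and Tcf19 at least 4.99-fold. The remaining names among the 15 largest differences toward cortex were Epop, an elongin- and polycomb-associated protein (-4.49 ± 0.15), Hkdc1, a hexokinase domain protein (-4.10 ± 0.16), and Mas1, the angiotensin-(1-7) receptor, at 9.22, 10.15 and 9.50 on the cortex arrays and 5.95, 5.53 and 5.57 on the hypothalamus arrays (-3.94 ± 0.19). Mas1 and Agt, both of the angiotensin system, thus lay at opposite ends, with Agt higher in hypothalamus and Mas1 higher in cortex.

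Different probes of a gene did not always concur. Of 2676 genes with at least 2 tested probes, 840 had every probe past the threshold in one direction, 899 had some past it and none against, 902 had none, and 35 had probes past it in opposite directions. Chrna4, a nicotinic receptor subunit, had 1 probe lower in hypothalamus (-0.93 ± 0.17) and 2 higher (0.66 ± 0.12 and 0.97 ± 0.12). Elmo1, Cacnb4, Actn4, Tug1, Rims1, Adam22 and Cabyr showed the same kind of disagreement. No direction is drawn for these genes, and Rims1 and Cacnb4 enter their lists by the probe of highest mean level. The precision of the comparison can be read from the intervals: the median SE was 0.13, and for 4876 probes the 95% interval of the difference lay within 0.5 log2 units of 0. Of these, 589 passed the threshold with a small difference.

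The same comparison in other animals gave the same direction for nearly all large differences. In the 3 knockout cortex and 3 knockout hypothalamus arrays, which share no sample with the wild-type ones, 50.7% of the genes passed the threshold. Of the 5294 genes called in wild type, 4108 (77.6%) were called in the same direction in knockout, which is 81.2% of the genes called there, and 8 in the opposite direction. Of the 1266 called with at least a 2-fold difference, 1199 (94.7%) were called in the same direction and 4 in the opposite direction. Fitted knockout differences of some leading genes were 7.74 for Hcrt, 6.96 for Oxt, 7.04 for Avp, -7.88 for Slc17a7 and -5.24 for Tbr1. These give a direction and are no bounds. In wild type Hcrt and Avp were detected on 0 cortex arrays, and Slc17a7 and Tbr1 on 1 of 3 hypothalamus arrays. The genotype difference of the regional difference was tested at each probe, and 3 of 14640 (0.0205%; 0.0301% of genes) passed: Prl, Apoa2 and Padi6. With 1 array left out this count was 3 to 153. Prl was at least 10.4-fold higher in wild-type hypothalamus and detected on 0 knockout arrays of either region (interaction adjusted p = 0.00211). Each of the 3 was detected in 1 wild-type region and in neither knockout region, so its knockout difference lies between signals not above background and the size of the genotype difference is not known. The meningeal list had a median of 0.29 in wild type, and in knockout 0 members were higher and 22 lower with a median of -0.99. In knockout hypothalamus Slc6a13 stood at 7.73, 7.59 and 7.91, near wild-type array 1 and below wild-type arrays 2 and 3. The microglial list had 24 members lower in knockout against 13 in wild type. These list differences were not tested between the genotypes. Of the 8 genes called in opposite directions, Dcn, Itih2, Foxc2 and H2-Aa were at least 2-fold higher in wild-type hypothalamus, and Lyz1, Lyz2 and Srgn were higher and Rorb lower. They are named after their values were seen, and none of the 8 passed the genotype test. Lyz1 and Lyz2 are near-identical copies whose probes may read each other's RNA. Dcn, decorin of fibroblasts, differed by 1.05 ± 0.27 in wild type and -0.74 in knockout, and Foxc2, a factor of mesenchyme, by 1.17 ± 0.39 and -1.09. Itih2 stood at 7.24, 8.72 and 9.75 on wild-type hypothalamus arrays 1, 2 and 3 and H2-Aa, an MHC class II gene, at 6.53, 7.14 and 8.20, both highest on array 3, where the meningeal genes were highest.

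**Figure D5:**
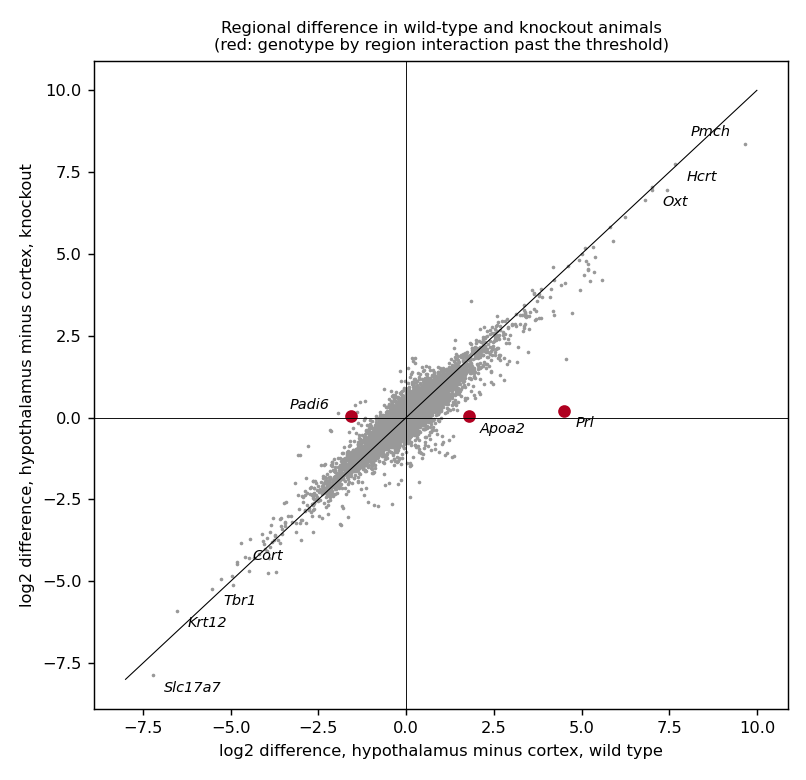
Log2 difference between hypothalamus and cortex in wild-type animals (horizontal) and in T1R3 knockout animals (vertical) for the 14640 tested probes, 3 arrays per region and genotype; the diagonal marks equal differences. The 3 red points, Prl, Apoa2 and Padi6, lie at 4.51, 1.79 and -1.56 in wild type and at 0.21, 0.03 and 0.05 in knockout; these are fitted values that rest on signals not above background in 1 wild-type region and both knockout regions.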

How the data were processed

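Cortex, hippocampus and hypothalamus RNA of 18 mice was read on Illumina bead arrays. The deposited signal table holds linear intensity values per probe, read with GenomeStudio 2011.1 per the submitters' processing notes, with no normalization between arrays, and whether background was subtracted is not stated there. The deposited detection p-value of each probe compares it with control beads of its array, per the file headers. The deposited processed table holds a z score per array, which equalled the standardized log signal of the same array to within 5.0e-10.

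Signals of the 18 arrays were background-corrected, quantile-normalized and log2-transformed with neqc (limma 3.58.1, R 4.3.3, offset 16, using the detection p-values). Probes with a detection p under 0.05 on at least 3 of the 6 wild-type cortex and hypothalamus arrays were kept, 14640 of 25697. A linear model with 6 groups was fitted over 18 arrays with eBayes (12 residual degrees of freedom), with Benjamini-Hochberg adjustment across all 14640 and 0.05 as the threshold. The hypothalamus minus cortex difference in knockout, and its difference from that in wild type, came from the same fit. A gene was represented by its tested probe of highest mean level over the 6 arrays. The number of arrays limits the precision. Scripts were tested on simulated data.

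Gene symbols came from the platform annotation, updated through RefSeq, and 1719 probes had none. Genes named are the 15 largest differences in each direction without overlap of arrays, up to 8 members of each gene list past the threshold with up to 4 that did not pass or ran against it, the 6 largest bounds in each direction, the most variable probes, genes with opposed probes, genes past the genotype test, neighbouring-tissue markers and the vesicular glutamate transporters. The members and lists were chosen with earlier results of these data known. Alternatives changed the background correction, scaling, offset, deposited values, filter, variance model, replicate block, arrays fitted, probe rule and each array in turn.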

Additional observations from a re-analysis of the deposited data

Results flagged for a closer look

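At 3 genes the difference between hypothalamus and cortex itself differed between wild-type and knockout animals, in the interaction term of the limma fit. The count of probes past this test was 3 to 153 with 1 array left out. Each of the 3 genes was detected in 1 wild-type region and in neither knockout region. The fitted sizes below thus rest on signals not above background and are no bounds. Prl, the pituitary hormone prolactin, was at least 10.4-fold higher in wild-type hypothalamus than in cortex, and the fitted knockout difference minus the wild-type one was -4.3 (adjusted p = 0.00211). Its wild-type hypothalamus values were 9.18, 10.71 and 8.49 and its knockout ones 5.22, 5.21 and 4.86, with the gene detected on 3 and 0 arrays. Cga and Tshb, of the same gland, were detected on 2 of 3 knockout hypothalamus arrays and did not pass this test.

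Apoa2, an apolipoprotein, stood at 5.64, 5.40 and 5.64 in wild-type cortex and 7.49, 7.24 and 7.31 in wild-type hypothalamus, against 4.94, 4.85 and 4.87 and then 4.94, 4.85 and 4.98 in knockout. It was at least 2.40-fold higher in wild-type hypothalamus. The fitted knockout difference minus the wild-type one was -1.757 (adjusted p = 1.95e-05), and the gene was detected only on the wild-type hypothalamus arrays among these 12. Padi6, a peptidylarginine deiminase known from oocytes, ran the other way, at 6.41, 6.26 and 6.49 in wild-type cortex and 4.84, 4.77 and 4.88 in wild-type hypothalamus. Its knockout arrays lay between 4.85 and 5.01 in both regions and the fitted difference of the differences was 1.613 (adjusted p = 4.35e-05). Padi6 was at least 1.498-fold lower in wild-type hypothalamus.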

How the results depend on the processing

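Of the probes tested, 7466 passed between the regions, and 6464 to 8228 did over all settings tried, and 0 of the probes called in both the reported setting and another turned direction between them. Leaving out 1 wild-type array gave 6482 to 6743 calls and, at 2-fold or more, 1727 to 1807 against 1764. Without background correction the 2-fold count was 1125, a scale on which low signals are compressed by construction. It was not computed on the z scores, which have no log2 scale. The count of genotype differences, 3, became 0 among probes detected on all 6 arrays, where those 3 probes are not tested, 5 with a trended robust prior and 8 with a replicate block. It was 3 to 153 when 1 array was left out: 153 without knockout cortex 1, 34 without wild-type hypothalamus 1, 14 without wild-type cortex 2 and 13 without knockout hypothalamus 2. The cause was not tested. It was not run in fits without the knockout arrays. The replicate block gave 7663 calls between the regions and 1766 at 2-fold. Same-numbered arrays did not deviate together from their region means (r = -0.08, 0.08 and -0.03). Genes of neighbouring tissue that varied among arrays enter these values, so they cannot tell whether same-numbered arrays shared a batch. Direction turned for Gapdh (0.01968 with median scaling, adjusted p = 0.915, and 0.05596 on z scores), Atp5b (0.1173 and 0.1062) and Atp5g3 (0.2713, adjusted p = 0.0253, and 0.1842, adjusted p = 0.0358); of these, Atp5g3 passed in the turned direction and had not passed in the reported setting (adjusted p = 0.707). The cause was not tested. The share of calls that were higher stayed between 49.5% and 52.7%. Signal over background limits what can be said of probes detected in 1 region, which have only a bound.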

Other observations

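Of 27 hippocampus genes tested, 10 were higher and 10 lower in hypothalamus (median 0.12), against 27.6% and 25.5% over all genes. In 3 of them the probe was detected on 3 hypothalamus and 0 cortex arrays. Of the 23 detected on all 6 arrays, 6 were higher and 10 lower (median -0.33). C1ql2, a complement-related synaptic protein, was higher (2.66), as was Prox1, a factor of dentate granule cells (1.26), while Mpped1 (-2.49), Pou3f1 (-2.21) and Nptx1, neuronal pentraxin 1 (-1.85), were lower. Of 27 MHC class I and interferon genes, 7 were higher and 3 lower, against 27.6% and 25.5% over all genes, and without hypothalamus array 3 the counts were 3 and 3, and without cortex array 3 they were 4 and 2. H2-D1 was higher (0.69), H2-T23 (-0.73) and Stat2 (-0.59) were lower, and B2m did not pass (-0.14). Of 10 oligodendrocyte precursor genes, 2 were higher and 2 lower, against 27.6% and 25.5% over all genes. Pdgfra (0.72) and Gpr17 (0.39) were higher, and Rlbp1 (-1.25) and Fyn (-0.68) lower. The 4 globin and red cell genes tested included 0 past the threshold in the limma fit and 0 with an unadjusted p under 0.05, with Hba-a1 at 0.16 (adjusted p = 0.61).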
